A study of Homo sapiens with 4 samples.

Results

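The RUNX and ETO family genes studied here were RUNX1, RUNX2, RUNX3, CBFB, RUNX1T1, CBFA2T2 and CBFA2T3, and their peaks were all rows of the deposited peak table whose nearest-gene symbol was one of these 7. The rows numbered 50 of 25514, of which 45 lay in or beside a gene (promoter, intron or 3′ untranslated region by the authors' annotation) and 5 were distal intergenic and are kept apart. H4K20me1, monomethylated lysine 20 of histone H4, had been profiled by CUT&Tag in Kasumi-1, an acute myeloid leukemia line with the t(8;21) translocation. The method uses an antibody to bring the Tn5 transposase to marked chromatin, which it cuts into fragments for sequencing. Each of the 4 libraries was made from 100000 cells: 2 from Kasumi-1 cells that received a non-targeting guide (sgNT, labelled WT) and 2 from Kasumi-1 cells with a CRISPR/Cas9 knockout of SETD8 (sgSETD8), the enzyme that places this mark. The labels state neither a time after editing nor whether the cells were a pool or a clone, and nothing in them tells separate cultures from repeat libraries.

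The table gives 1 value per group and not per library, so no difference below has a replicate check. All peaks together held 2791207 recovered reads in the group listed first and 2682916 in the other. No header says which group is listed first. The name of the deposited comparison, treated against control, would make it the knockout, but the groups are called first-listed and second-listed throughout. Every log2 fold change is the first-listed minus the second-listed group. Brackets give an exact 95% interval that covers counting error only, and scaled reads are reads times the authors' 1 factor per group. A gain or loss of the mark shared by all peaks therefore cannot be told from a difference in sequencing depth. Fold changes near 0 do not show that the mark was unchanged. A gene peak was present at 3 of 6 myeloid leukemia markers (CD34, KIT and SPI1), 2 of 4 neuronal, 1 of 4 liver and 0 of 4 T cell markers. Of all protein-coding genes, 41.1% had a peak within their RefSeq span. A peak of this mark is no measure of expression.

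RUNX proteins bind DNA through the Runt domain, and CBFB is the partner that strengthens this binding without touching DNA itself. RUNX1 is a master regulator of blood stem cell emergence and of myeloid and lymphoid development, RUNX2 of bone formation, and RUNX3 of T cells and sensory neurons. RUNX1T1 (ETO, MTG8), CBFA2T2 (MTGR1) and CBFA2T3 (ETO2, MTG16) are corepressors that recruit NCOR and histone deacetylases and do not bind DNA by themselves. In t(8;21) leukemia the Runt domain part of RUNX1 is joined to nearly all of RUNX1T1, and the fused gene is read from the RUNX1 promoters.

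The promoters of the RUNX genes differed in whether a called peak lay on them. RUNX genes have a distal first and a proximal second promoter. The windows below run from 250 bases before to 50 after a RefSeq start (GRCh38.p14, the build named hg38 in the files). They are shown because 1 of them lay in a peak and the other 4 did not. Of all promoter windows 15.5% overlapped a peak, and with so few windows the count is no trait of the family. The first RUNX1 promoter had no such window, although its start lay in a peak too. Capitals mark the RUNX consensus TGTGGT or its form TGCGGT on either strand (ACCACA and ACCGCA on the strand shown).
RUNX1 second promoter, chr21:34888650-34888949, minus strand: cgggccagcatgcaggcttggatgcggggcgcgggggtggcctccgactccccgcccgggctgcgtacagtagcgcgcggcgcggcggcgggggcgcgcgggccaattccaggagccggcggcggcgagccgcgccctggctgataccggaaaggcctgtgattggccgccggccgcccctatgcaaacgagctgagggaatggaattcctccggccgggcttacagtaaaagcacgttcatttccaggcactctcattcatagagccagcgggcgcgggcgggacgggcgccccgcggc
RUNX2 first promoter, chr6:45328080-45328379, plus strand: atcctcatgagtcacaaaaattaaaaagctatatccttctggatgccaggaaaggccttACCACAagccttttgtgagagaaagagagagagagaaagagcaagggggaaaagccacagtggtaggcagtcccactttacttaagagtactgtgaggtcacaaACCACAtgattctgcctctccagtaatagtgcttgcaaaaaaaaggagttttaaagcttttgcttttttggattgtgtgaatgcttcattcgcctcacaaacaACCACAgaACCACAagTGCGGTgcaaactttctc
RUNX2 second promoter, chr6:45422025-45422324, plus strand: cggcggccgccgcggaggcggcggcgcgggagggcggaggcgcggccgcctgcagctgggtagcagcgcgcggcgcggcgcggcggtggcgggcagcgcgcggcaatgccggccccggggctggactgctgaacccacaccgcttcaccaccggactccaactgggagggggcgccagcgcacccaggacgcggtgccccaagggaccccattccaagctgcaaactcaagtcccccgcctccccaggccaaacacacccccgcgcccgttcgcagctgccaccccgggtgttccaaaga
RUNX3 first promoter, chr1:24964961-24965260, minus strand: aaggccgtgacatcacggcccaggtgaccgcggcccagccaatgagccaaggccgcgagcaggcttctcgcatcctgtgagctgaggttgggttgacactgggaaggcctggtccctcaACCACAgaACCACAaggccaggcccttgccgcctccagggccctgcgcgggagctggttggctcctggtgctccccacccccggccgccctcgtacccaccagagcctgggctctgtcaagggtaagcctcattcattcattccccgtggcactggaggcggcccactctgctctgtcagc
RUNX3 second promoter, chr1:24930227-24930526, minus strand: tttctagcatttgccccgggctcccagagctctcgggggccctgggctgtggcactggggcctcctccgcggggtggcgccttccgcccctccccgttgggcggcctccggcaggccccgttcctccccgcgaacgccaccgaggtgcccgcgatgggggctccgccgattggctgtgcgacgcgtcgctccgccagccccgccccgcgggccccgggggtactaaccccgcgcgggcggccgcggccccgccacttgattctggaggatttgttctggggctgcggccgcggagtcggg

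The RUNX1 window lay inside a peak, as did 15.5% of all 34943 promoter windows in whole or part. The second RUNX2 window ended 612 bases before a peak, the first RUNX2 window was 48861 bases from any peak, and the RUNX3 windows were 57127 bases (second) and 91861 bases (first) away. Within the windows shown, the letters did not sort with the mark in a simple way. Over all windows, those rich in G and C overlapped a peak more often. The 3 second promoters were all rich in G and C (72% for RUNX1, 76% for RUNX2 and 76% for RUNX3), yet the RUNX3 window had no peak near it. Of all windows with at least 66% G and C, 23.5% overlapped a peak, against 1.88% of those under 45%. The first promoter of RUNX2 (42.7% G and C) held TGTGGT 4 times and TGCGGT 1 time, and that of RUNX3 (66.3%) held TGTGGT 2 times. TGTGGT occurred in 13.1% of all windows and at least 4 times in 0.0143%. TGTGGT occurred in 9.91% of windows that overlapped a peak and in 13.7% of those that did not. TGCGGT went the other way, with 11.2% of windows that overlapped a peak and 6.56% of those that did not. Either form was found in nearly equal shares, 19.99% with a peak and 19.51% without. The windows of CBFA2T3 (83% G and C) and CBFA2T2 (44.3%) held neither motif and were 15037 and 68673 bases from a peak. Both windows lay at starts inside the gene, not at its outermost RefSeq start (88977207 for CBFA2T3 and 33490096 for CBFA2T2). The only CBFA2T2 peak began 1.9 kb from that outermost start. A match of letters is no measure of binding. RUNX1T1, CBFB and the first RUNX1 promoter had no window.

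The 2 genes joined in the fusion carried most of the family's signal, and neither they nor the other members passed the test for a difference between the groups. RUNX1 held 26 of the 45 gene peaks and RUNX1T1 9, followed by RUNX2 with 4, CBFB with 3, CBFA2T3 with 2, CBFA2T2 with 1 and RUNX3 with 0. RUNX1 ranked 11 of 20056 protein-coding genes by the number of peaks within its RefSeq span of 261.5 kb. Relative to length, 99.0% of the 5954 protein-coding genes of 50 to 500 kb had fewer peaks per 100 kb than RUNX1 and 93.1% had fewer than RUNX1T1. The same share was 89.2% for CBFB, 74.2% for CBFA2T3, 71.1% for RUNX2 and 48.1% for CBFA2T2. At least 1 peak was present in the span of 41.1% of protein-coding genes, and RUNX3 was not among them.

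Per length of peak, RUNX1 was also the most strongly marked member. Its peaks together held 152 scaled reads per kb in the first-listed group (148 to 157) and 148 in the second-listed group (143 to 152). RUNX1T1 followed with 111 (105 to 116) and 100 (95.3 to 106). CBFA2T3 stood at 78.3 (69.4 to 88.1) and 69.4 (61.1 to 78.4), and CBFB at 59.9 (53.4 to 66.9) and 65.3 (58.7 to 72.5). RUNX2 gave 52.4 (45.5 to 60.0) and 55.6 (48.7 to 63.3), and CBFA2T2 36.4 (27.2 to 47.7) and 50.4 (39.7 to 63.2). By these counting intervals RUNX1 and RUNX1T1 stood apart from each other and from the rest in both groups. The other members overlapped: CBFB with RUNX2, and RUNX2 with CBFA2T2, in both groups, and every pair of the 4 in the second-listed group. The intervals do not cover the spread among the peaks of a gene. Averaged over the groups, single RUNX1 peaks ran from 68.9 to 335 scaled reads per kb, and 1 CBFA2T3 gene peak stood at 82.3. The median peak of the table held 70.3 scaled reads per kb. No control library without antibody was used here, so regional copy number and background cuts within these levels were not tested.

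RUNX1 lies on the minus strand of chromosome 21 (34787801 to 35049302). Its peaks are given in the order of transcription. The peak on the first promoter (35048132 to 35049454) was modest, with 90 reads in the first-listed group, 103 in the other and a log2 fold change of −0.14 (−0.56 to 0.28). The second promoter, which makes the shorter RUNX1 protein, had a deeper peak (34888073 to 34890049) with 205 and 254 reads and a log2 fold change of −0.25 (−0.52 to 0.02). Both promoters were thus listed slightly lower in the first-listed group, with intervals that include 0.

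Between the promoters lies a long intron, known to hold hematopoietic enhancers whose positions were not used here, and it carried 14 peaks. They ran from 387 to 2502 bp wide and from 57 to 311 reads in the first-listed group, with log2 fold changes from −0.43 to 0.86, 9 above 0 and 5 below. The most different were a pair of narrow peaks below the median signal of all peaks (58.2 and 64.7 mean scaled reads against 71.0). One, 22.1 kb into the gene (35026975 to 35027361), held 75 and 43 reads, a log2 fold change of 0.86 (0.30 to 1.44). The other, 138 kb in (34911439 to 34911862), held 83 and 48 reads and gave 0.85 (0.32 to 1.39). In the authors' deposited table these had unadjusted p-values of 0.042 and 0.0443 and adjusted p-values of 0.966, so neither passed. Another peak at 34946262 to 34947078 held 187 and 134 reads and gave 0.54 (0.21 to 0.87). Against these stood 35006477 to 35008305, with 191 and 254 reads (−0.35, −0.63 to −0.08), and 34964784 to 34966012, with 106 and 149 reads (−0.43, −0.81 to −0.07). Peaks of this intron thus went both ways. Their reads summed to 2027 and 1970, a log2 ratio of 0.10 (0.01 to 0.19), which was −0.02 with the groups scaled to equal reads in peaks.

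The strongest marking of RUNX1 began past the second promoter, in the intron before the last exon that the fusion keeps. Here 4 peaks within 34861067 to 34871730 reached 261, 323, 335 and 264 scaled reads per kb in the order of transcription, averaged over the groups. These lay between percentile 98.0 and 99.4 of all peaks. The first of them (34870368 to 34871730) was the deepest of the gene with 362 and 364 reads and a log2 fold change of 0.05 (−0.16 to 0.26). Its neighbours at 34867652 to 34868396, with 265 and 226 reads (0.29, 0.03 to 0.55), and at 34865387 to 34866053, with 199 and 257 reads (−0.31, −0.59 to −0.04), lay only a few kb apart and went opposite ways. The last of the 4 (34861067 to 34862100) held 269 and 289 reads, a log2 fold change of −0.06 (−0.29 to 0.20). Together the 4 held 1095 and 1136 reads, a log2 ratio of 0.00 (−0.12 to 0.12).

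**Figure D1:**
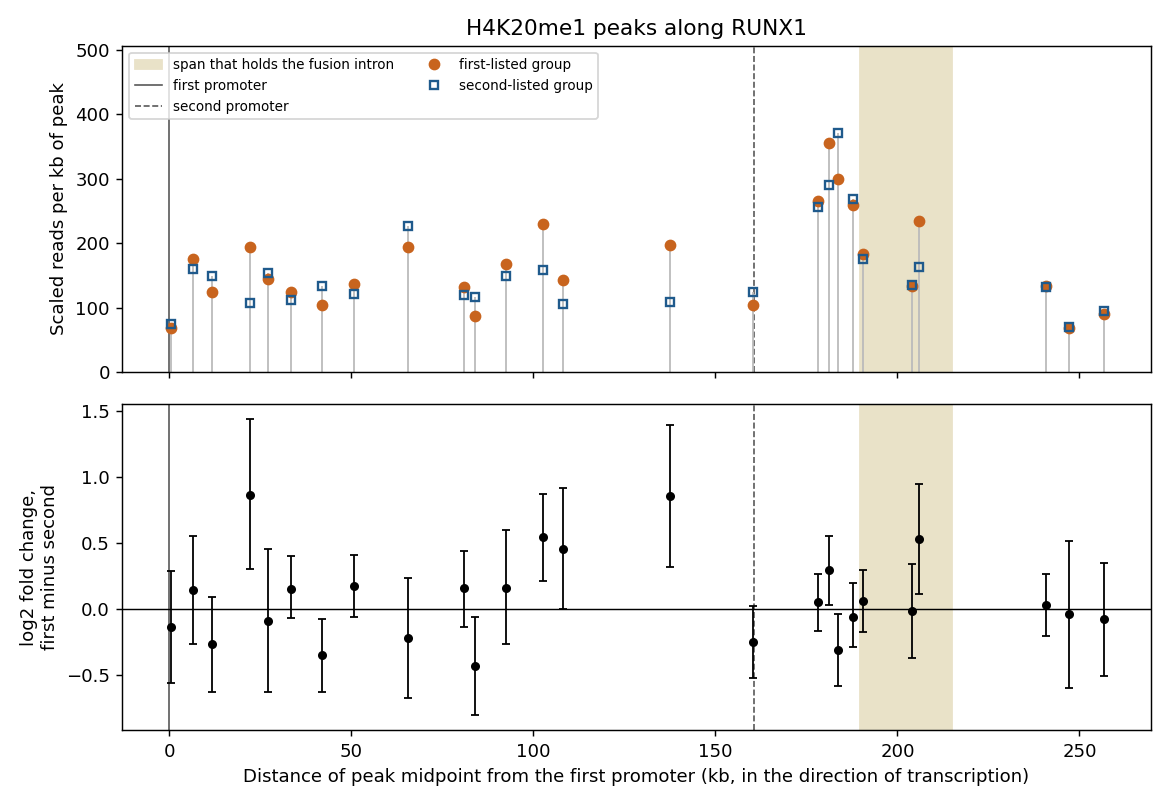
H4K20me1 along RUNX1: the upper plot gives scaled reads per kb of each of the 26 peaks in the first-listed (circles) and second-listed group (squares), and the lower plot the log2 fold change with its exact 95% counting interval, both against kb from the first promoter. The 4 peaks just before the shaded span, which begins 189.7 kb from the first promoter and holds the fusion intron, are the highest per kb, and the fold changes lie on both sides of 0.

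To place the peaks relative to the fusion, transcript ends in the file served as landmarks. From knowledge of the fusion transcript and not from the labels, the last RUNX1 exon kept in it is the one that begins at 34859578, where a listed RUNX1 transcript starts. The fusion intron follows and is intron 3 of 5 in the file's short RUNX1 transcript. The exact break of Kasumi-1 within it was not used here. Each peak holds reads of the intact and the rearranged chromosome alike, which these values cannot separate.

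Before the start of that exon lay 20 of the 26 RUNX1 peaks, in 189.7 kb. The span of the exon and the fusion intron, 25.2 kb, held 3 peaks by their midpoints. One (34857947 to 34859607) begins 29 bases before the exon and has 1632 bases from its start on, and it held 304 reads in both groups, a log2 fold change of 0.06 (−0.18 to 0.29). The other 2 lay within the intron, 34844673 to 34845670 with 133 and 140 reads (−0.02, −0.37 to 0.34) and 34843189 to 34843695 with 119 and 86 reads (0.53, 0.11 to 0.94). After the fusion intron, in the part that the fusion gene loses, lay 3 peaks in 46.6 kb. These were 34807478 to 34809747 with 304 and 310 reads (0.03, −0.20 to 0.26), 34801759 to 34802569 with 55 and 59 (−0.04, −0.60 to 0.51), and one in the 3′ untranslated region, 34792113 to 34793108, with 90 and 99 (−0.08, −0.51 to 0.35).

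Peaks were denser before and in the span of the fusion intron than after it. There were 10.5 per 100 kb before, 11.9 in the span and 6.44 after it. The values in the span and after it rest on 3 peaks each. In the span 1 of the 3 lies on the exon, and without it the density there would be lower. The widest stretch of RUNX1 without a peak, 33.4 kb, ran from the end of the fusion intron's last peak across the next exon, against a median gap of 6.25 kb. Scaled reads per kb of peak were 157 and 153 before the span, 176 and 161 in it, and 110 in both groups after it. The level was thus lowest in the part after the intron in each group. Summed over each part the log2 ratio between groups was 0.04 (−0.03 to 0.11) before, 0.13 (−0.05 to 0.30) within and 0.00 (−0.19 to 0.19) after. The intervals of the 3 parts overlap one another and all include 0. The medians over peaks were 0.10, 0.06 and −0.04. The median within rests on few peaks and was 0.26 over the 2 that lie wholly in the intron.

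RUNX1T1, the other partner in the fusion, lies on the minus strand of chromosome 8 (91954967 to 92103385). Of its 9 gene peaks 1, at 91816450 to 91816843 with 29 and 35 reads (−0.21, −0.98 to 0.54), lay beyond the gene's end in an intron of another transcript. The first exon that the fusion keeps begins at 92017363, where a listed RUNX1T1 transcript starts, and breaks fall in the introns upstream of it. Upstream of this exon lay 4 peaks and after it 4.

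The upstream 4 are on the side that the fusion gene leaves behind in whole or part, depending on the break. The peak on the upstream start (92095469 to 92096540) held 91 reads in both groups, a log2 fold change of 0.06 (−0.38 to 0.49). An inner promoter (92062398 to 92062988) held 77 and 59 reads (0.44, −0.07 to 0.96). The intron peak at 92033477 to 92035177 held 271 and 200 reads, a log2 fold change of 0.49 (0.23 to 0.77), the highest of the RUNX1T1 gene peaks. Next to the fusion exon, the peak at 92021253 to 92022819 held 265 and 278 reads (−0.01, −0.26 to 0.24) and had the highest level per kb of the gene, 170 scaled reads averaged over the groups.

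After the fusion exon the first peak (92014352 to 92015175) held 154 and 116 reads (0.47, 0.11 to 0.83). The next, at the start of a shorter internal transcript (92005108 to 92006048), held 97 and 149 reads and gave −0.56 (−0.95 to −0.18), the lowest value of any member peak. In the authors' deposited table its unadjusted p was 0.156 and its adjusted p 0.998. The last 2 lay in 3′ untranslated regions. One, 91979684 to 91981804, held 189 and 190 reads (0.06, −0.25 to 0.35). The other, 91955834 to 91961043, was the widest member peak with 5210 bp and held 422 and 387 reads (0.18, −0.02 to 0.38).

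**Figure D2:**
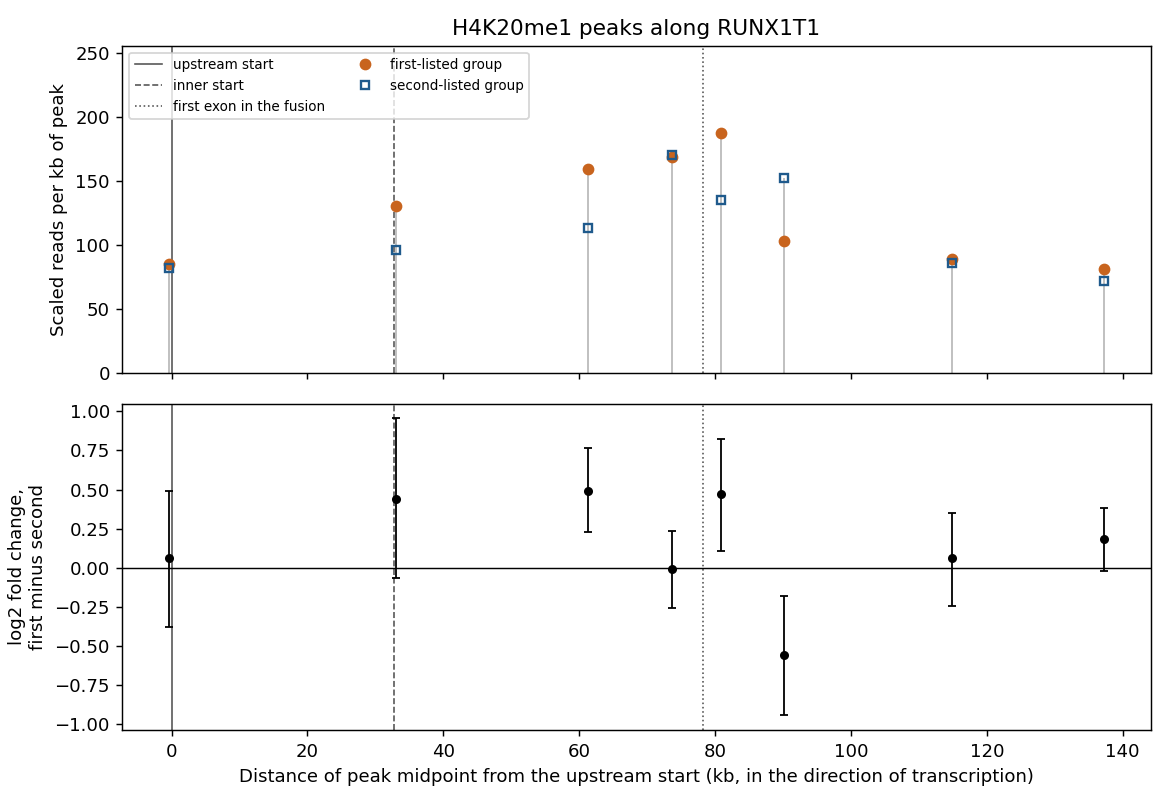
H4K20me1 along RUNX1T1: scaled reads per kb of peak in each group (above) and log2 fold change with exact 95% counting interval (below) for the 8 peaks within the gene, against kb from the upstream start. Levels are highest around the first exon in the fusion, at 78.3 kb, and lower toward both ends, and the peak 90.1 kb in is the only one whose interval lies below 0.

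In RUNX1T1 the mark was thus highest around the first exon of the fusion, on both sides of it. Per kb of peak it was 143 and 122 scaled reads upstream of that exon and 94.8 and 89.0 after it. The 5210 bp peak at the gene's end, at 76.2 averaged over the groups, weighs on the lower value, and the median peak held 125 upstream and 107 after. Between groups the log2 ratio was 0.22 (0.06 to 0.38) upstream and 0.09 (−0.05 to 0.23) after, which overlap. With equal reads in peaks these were 0.11 and −0.02. Of the 4 distal intergenic rows beyond the upstream start, 41 to 247 kb away, reads ran from 31 to 47 in the group listed first and from 30 to 46 in the other, with log2 fold changes from −0.42 to 0.52 and intervals that all include 0.

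CBFB, the non-DNA-binding partner of all RUNX proteins, carried 3 peaks on chromosome 16. The promoter peak (67028892 to 67032063) was broad and held 186 and 222 reads, a log2 fold change of −0.20 (−0.49 to 0.09). Inside the gene, 67039172 to 67040559 held 80 and 73 reads (0.19, −0.29 to 0.67) and 67056006 to 67056656 held 46 and 59 (−0.30, −0.89 to 0.28). All 3 intervals include 0.

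RUNX2 carried 4 weak peaks on chromosome 6, all past its second promoter. The peak just past the second promoter (45422936 to 45424503) held 88 and 83 reads (0.14, −0.31 to 0.59). Introns held 54 and 74 reads at 45430059 to 45431334 (−0.40, −0.93 to 0.13) and 38 and 34 at 45450441 to 45451003 (0.22, −0.49 to 0.93). The last, 45553586 to 45554187, with 30 and 41 reads (−0.39, −1.12 to 0.32), lay past the RefSeq end of the gene in an intron of a longer transcript. Between its promoters lay 1 peak, at 45377240 to 45378439, which the file gives to SUPT3H, a gene that overlaps RUNX2, and which held 35 and 44 reads (−0.27, −0.96 to 0.40).

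RUNX3 had no peak within its 65.6 kb on chromosome 1. The nearest peak, 26.4 kb past its end, held 28 and 31 reads, and on the other side the nearest was 266.9 kb away at the promoter of SYF2. Absence from a list of called peaks does not show that the mark is absent, and the reads over RUNX3 were not used here.

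Among the other ETO family corepressors, CBFA2T3 had 2 gene peaks on chromosome 16. One on an internal promoter (88956637 to 88959220) held 189 and 183 reads (0.10, −0.20 to 0.40) and one in intron 1 (88909803 to 88910780) held 90 and 74 (0.34, −0.12 to 0.80). Its distal row, 89031991 to 89032474, held 40 and 53 (−0.35, −0.98 to 0.27). CBFA2T2 had a single peak on chromosome 20, at 33491990 to 33493419 near its first start, with 52 and 75 reads and a log2 fold change of −0.47 (−1.01 to 0.06). The 3 corepressor genes thus differed widely in marking, from 1 peak to 9.

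**Figure D3:**
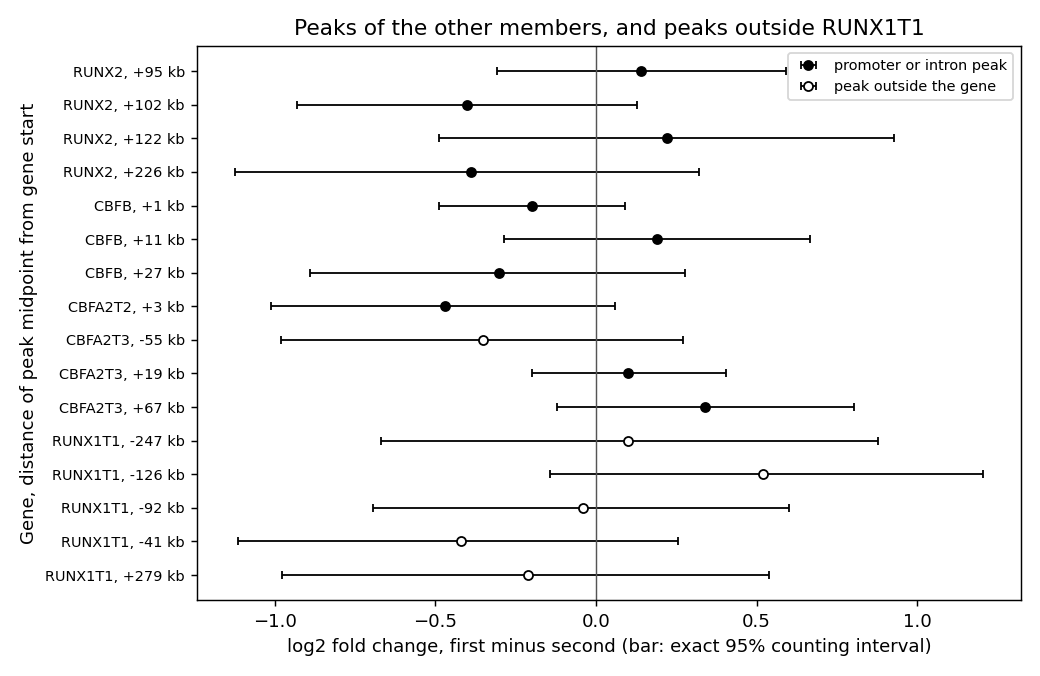
Log2 fold change of the peaks of RUNX2, CBFB, CBFA2T2 and CBFA2T3 (filled) and of peaks outside CBFA2T3 and RUNX1T1 (open), with exact 95% counting intervals; labels give the distance of the midpoint from the gene start. Every interval shown crosses 0.

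No member peak passed an adjusted p of 0.05 in the authors' deposited table, nor did any of the 25514 peaks (0%). At an unadjusted p under 0.05 stood 2 of the 45 gene peaks (4.44%), against 5.06% of all peaks. Both were RUNX1 peaks higher in the first-listed group (all peaks 3.37%), and 0 were lower (all peaks 1.69%). A log2 fold change of at least 0.5 in size was listed for 5 (11.1%), against 22.6% of all peaks. Of these 4 were higher (all peaks 13.9%) and 1 lower (all peaks 8.71%). None reached 1, against 2.46% of all peaks. The counting interval excluded 0 for 11 (24.4%), against 25.3% of all peaks and 26.3% of those within the members' range of reads. Of the 11, 7 were higher (all peaks 17.1%) and 4 lower (all peaks 8.11%). Members were thus close to the background in the share beyond counting error and below it in the share past 0.5. They were also deeper, with 34 of 45 (75.6%) at or above the median signal of the table, against 50% of all peaks. Deep peaks have smaller counting error, and whether depth accounts for the lower share past 0.5 was not tested.

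**Figure D4:**
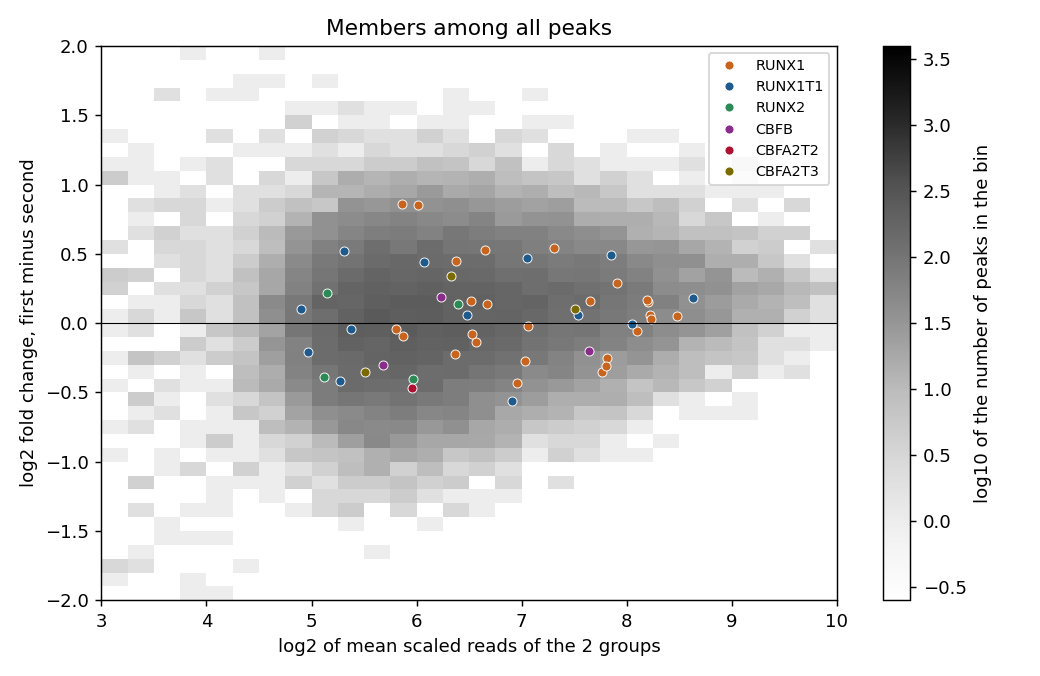
Log2 fold change against log2 mean scaled reads for all peaks (grey, darker where more peaks fall in a bin) with the 50 member rows in color; the axes are limited to the range around the members. The member peaks lie within the spread of the other peaks, between −0.56 and 0.86.

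The median log2 fold change was 0.06 over the 45 gene peaks and 0.06 over all peaks, with 25 members above 0 (55.6%, all peaks 58.2%) and 20 below (44.4%, all peaks 40.9%). The 14 promoter peaks had a median of 0.03 (all promoter peaks 0.09), and the 28 intron peaks 0.10 (all intron peaks 0.10). RUNX1 peaks had a median of 0.04, against 0.11 for the other 252 peaks of chromosome 21, and RUNX1T1 peaks 0.06 against 0.12 for the other 1870 of chromosome 8. Summed over gene peaks, RUNX1 held 4422 and 4461 reads, a log2 ratio of 0.04 (−0.02 to 0.11), and RUNX1T1 1595 and 1505, a ratio of 0.14 (0.04 to 0.24). With equal reads in peaks, which shifts every log2 fold change by −0.11, RUNX1 turned to −0.07 (−0.13 to −0.01) and RUNX1T1 went to 0.03 (−0.08 to 0.13), so that neither direction is fixed by these data. CBFA2T3 gave 0.18 (−0.07 to 0.43), RUNX2 −0.09 (−0.36 to 0.19), CBFB −0.13 (−0.35 to 0.10) and CBFA2T2 −0.47 (−1.01 to 0.06). With equal reads in peaks the intervals of CBFB, −0.24 (−0.46 to −0.02), and CBFA2T2, −0.59 (−1.12 to −0.06), came to lie below 0, while CBFA2T3, 0.06 (−0.19 to 0.31), and RUNX2, −0.20 (−0.48 to 0.08), still included 0.

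Genes that work with the family were taken from 3 lists. For comparison, 41.1% of all protein-coding genes had a peak within their RefSeq span, a count by position and not by symbol. Whether the share of a list differs from this was not tested. Of 16 corepressors that work with ETO proteins 8 had a gene peak, with 5 above 0 and 3 below and a median log2 ratio of summed reads of 0.19. RCOR1, a corepressor of the CoREST complex, was highest with 151 and 106 reads (0.57, 0.20 to 0.94) and GPS2, a subunit of the NCOR complex, lowest with 53 and 62 (−0.17, −0.73 to 0.38). Of 24 partner factors 18 had a peak, 8 above 0 and 10 below, with a median of −0.07. PRMT1, an arginine methyltransferase that acts on RUNX1, was highest with 423 and 320 reads (0.46, 0.25 to 0.67) and EP300, an acetyltransferase, lowest with 163 and 229 (−0.43, −0.73 to −0.14). Of 24 targets of RUNX1 or its fusion 11 had a peak, 8 above 0 and 3 below, with a median of 0.20. CD34 was highest (1.31, 1.00 to 1.64) and ID2, an inhibitor of E proteins, lowest with 97 and 125 reads (−0.31, −0.71 to 0.09). Over all 9020 symbols with a gene peak the median was 0.09 and 61.9% were above 0. No peak of these lists had an adjusted p under 0.05 by the authors' deposited table.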

How the data were processed

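H4K20me1 CUT&Tag reads of 2 control and 2 SETD8 knockout libraries were reduced by the authors to 1 table of the whole series. The submitters' processing notes name DESeq, Bowtie2, cutadapt and the build hg38. Not given in the sources used here were versions, peak caller, duplicate treatment and how libraries were merged. The authors deposited, per peak, log2 scaled reads of each group, their log2 fold change, and an unadjusted and an adjusted p-value. Columns are named only by number, and their meaning was settled from the values: the fold matches the difference of both group columns (first minus second) within 0.01.

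Low values (1.5 to 5.5) equal log2 of a whole number within 0.0051 after 1 constant per column (0 and 0.057), so reads were recovered by rounding. For over about 100 reads the 2 decimals of the file make this approximate, and reads of 1 fragment may have been counted at both ends, so intervals may be too narrow. Exact Clopper-Pearson intervals (95%) of the ratio, and exact Poisson intervals of levels per kb, cover counting error only. With 1 column per group no test was made, no library could be left out, and p-values are the authors' own. The median peak held 72 reads in each group.

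Peaks were taken by the symbol in the table, and for the alternative by the host gene of the annotation. Gene sums leave out distal intergenic rows. All 7 members matched RefSeq (GRCh38.p14), and 5 of them had 7 promoter windows. The members and gene lists were chosen with earlier results of these data known. Named were all members and, per list of corepressors, partner factors and targets, the gene with the highest and the lowest log2 ratio among those with at least 100 reads in the groups together. Read recovery and intervals were tested on data simulated with counting error only. That setting holds no difference between libraries and no fragment counted at both ends, so it cannot show that the intervals are wide enough here. Python 3.11.15, numpy 2.4.6, pandas 2.3.3, scipy 1.17.1 and matplotlib 3.10.9 were used.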

Additional observations from a re-analysis of the deposited data

How the results depend on the processing

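The alternatives were other p limits, a log2 limit of 1, peaks of at least median signal, equal reads in peaks, introns or promoters alone, host genes, distal rows, and means over peaks; no scaling, own chromosomes as background and the exon peak counted before the fusion intron were chosen after seeing the data. Of 62 values under alternatives, 50 stayed within the counting interval or within 1.5 times the count, and 12 did not. For medians the limit was an interval as wide as that of the summed reads, centred on the median, and not a counting interval of the median itself. By the authors' deposited table, 0 member gene peaks had an adjusted p under 0.05 or 0.1, and 2 passed at an unadjusted p under 0.05. Those at a log2 fold change of at least 0.5 numbered 5, and 3 at or above the median signal and 0 at the stricter limit of 1. The RUNX1 peaks at 0.86 and 0.85 lay below the median signal. Whether depth or the smaller number of peaks accounts for the lower count there was not tested. With equal reads in peaks, by the constant this subtracts, the summed log2 ratio of RUNX1 was −0.070 in place of 0.04, that of RUNX1T1 0.027 in place of 0.14, and the median of RUNX1 peaks before the fusion intron −0.019 in place of 0.10. Some values counted as staying changed sign. RUNX2 went from −0.09 to 0.14 in the 1 peak at or above the median signal, and RUNX1 from 0.04 to −0.013 without scaling. CBFB (−0.24) and CBFA2T2 (−0.59) with equal reads in peaks were also counted as staying, though their intervals then lay below 0. For the values that follow, the cause was not tested. The RUNX1 median in the span of the fusion intron was 0.06, but 0.26 over introns alone and likewise 0.26 with the exon peak counted before it, since both leave the same 2 peaks. The RUNX1T1 median upstream of the first exon in the fusion was 0.25, but 0.06 at or above the median signal and 0.49 in the 1 peak that is annotated as intron. The median of member gene peaks minus that of all peaks was 0.00, but −0.07 at or above the median signal and −0.065 for promoter peaks. No paired analysis was possible because the values are given per group and not per library. Depth limits single peaks: at 52 and 75 reads (CBFA2T2) a log2 fold change of −0.47 had an interval that includes 0.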
